A study of Mus musculus with 4 samples.

Results

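The transcripts described here come from the mitochondrial genome of mouse T helper 17 (Th17) cells, a kind of helper T cell that secretes interleukin 17. The members are all rows that the deposited count tables place on the mitochondrial chromosome, chrM. They number 37 of the 50600 genes in each table, and comprise 13 mRNAs, 2 ribosomal RNAs (rRNAs) and 22 transfer RNAs (tRNAs). RNA was sequenced in 4 libraries of primary Th17 cells from the C57BL/6NJ strain, which the labels number as biological replicates 1 to 4 of a single group. The labels name no treated or control arm, give the age as unknown, list the 4 biosamples under a single donor identifier, and link a protocol for differentiating T cells in culture. They do not say whether the samples came from different animals, so every p-value here reflects the spread among these 4 samples alone, which may be technical. A time of 72 hr stands in the header of each table. The assay is labelled as total RNA sequencing, while the linked library protocol is titled for poly(A)+ RNA.

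The mitochondrial genome is a small circle whose 2 strands are each transcribed as long precursors. The precursors are cut mainly at the tRNAs that punctuate them, which frees the mRNAs and rRNAs between. The mRNAs encode subunits of respiratory complexes I, III, IV and V, the rRNAs belong to the mitochondrial ribosome, and the tRNAs serve its translation. Pieces of this genome have also been copied into nuclear chromosomes, where they are annotated as pseudogenes. A read that fits both the mitochondrial gene and such a copy has no single place, and counters commonly leave it out.

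The deposited tables held 0 to 2 counts in all for each of 6 of the 13 mRNAs, and those 6 are neighbours. They are mt-Co2 and mt-Co3, which encode subunits of cytochrome c oxidase (complex IV), mt-Atp8 and mt-Atp6 of ATP synthase (complex V), and mt-Nd3 and mt-Nd4l of NADH dehydrogenase (complex I). Of these, 5 had an annotated nuclear pseudogene in a single block on chromosome 1, chr1:24611535-24616197 on the minus strand (build mm10). The block held 7 unprocessed pseudogenes, which aligned over 4149 bases to 7 mitochondrial genes with 7 mismatches in all. It starts inside mt-Co1 and ends inside mt-Nd4, the genes on either side of the uncounted stretch. The sequences where the block begins are shown because they mark where the chromosome 1 copy of mt-Co1 starts. Bases are given 5′ to 3′ along each gene, read from the GENCODE vM21 transcripts on mm10, and capitals mark the bases that differ. The first line is chrM:6381-6440, plus strand, and the second is chr1:24616138-24616197, minus strand.
mt-Co1: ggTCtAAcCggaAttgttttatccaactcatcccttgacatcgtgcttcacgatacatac
Gm29216: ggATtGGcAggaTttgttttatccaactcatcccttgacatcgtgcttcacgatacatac
Counted from the 5′ end of mt-Co1, the 6 substitutions were T1056A, C1057T, A1059G, A1060G, C1062A and A1066T, with the mitochondrial base first. From chrM position 6394 onward the pseudogene Gm29216 matched mt-Co1 exactly over its last 479 bases.

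Among the other 6 pseudogenes of the block a single base differed. It lies near the start of mt-Nd3, shown in capitals below, with mt-Nd3 at chrM:9459-9518 on the plus strand and its copy Gm28438 at chr1:24613060-24613119 on the minus strand.
mt-Nd3: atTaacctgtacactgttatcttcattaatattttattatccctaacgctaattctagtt
Gm28438: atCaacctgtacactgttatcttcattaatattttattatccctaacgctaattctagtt
The substitution is T3C, counted from the 5′ end of mt-Nd3. The copy of mt-Nd4, Gm28439, matched the first 876 bases of the 1378-base gene without a mismatch and then stopped. The bases of mt-Nd4 across that end are shown next (chrM:11013-11072, plus strand), with those past the end of the copy in capitals.
mt-Nd4: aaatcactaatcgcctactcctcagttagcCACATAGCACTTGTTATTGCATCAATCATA
The exception within the stretch is mt-Atp8, for which no pseudogene is annotated in the block. Its whole sequence follows (chrM:7766-7969, plus strand), with the 43 bases it shares with mt-Atp6 in capitals.
mt-Atp8: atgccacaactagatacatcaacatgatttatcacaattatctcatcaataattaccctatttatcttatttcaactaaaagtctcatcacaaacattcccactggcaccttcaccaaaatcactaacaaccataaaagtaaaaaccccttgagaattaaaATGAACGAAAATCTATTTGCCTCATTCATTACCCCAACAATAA
The chromosome 1 block leaves 233 bases with 0 annotated genes between Gm28661, the copy of mt-Co2, and Gm10925, the copy of mt-Atp6. The mitochondrial genome likewise has 233 bases between the last aligned base of mt-Co2 and the first base of mt-Atp6, and that interval holds the start of mt-Atp8. Whether the nuclear interval carries a copy of mt-Atp8 was not tested, since no genome sequence was used here.

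In order along the chromosome, mt-Co2 (ENSMUSG00000064354.1, chrM:7013-7696) had counts of 0, 0, 1 and 1 in replicates 1 to 4. mt-Co3 (ENSMUSG00000064358.1, chrM:8607-9390) also had 0, 0, 1 and 1. mt-Atp8, mt-Atp6 (chrM:7927-8607), mt-Nd3 (chrM:9459-9806) and mt-Nd4l (chrM:9877-10173) were at 0 in every library. The stretch from the tRNA gene mt-Ts1 to mt-Nd4l, chrM:6870-10173, spans 3304 bases and 11 genes, of which 6 are mRNAs and 5 are tRNAs, and it received 4 counts over the 4 libraries. In TPM (count over gene length, scaled to a sum of 1000000 per library), a floor of 3 counts in a library stood for at most 0.443 for mt-Co2, 0.386 for mt-Co3, 0.445 for mt-Atp6, 0.870 for mt-Nd3, 1.02 for mt-Nd4l and 1.48 for mt-Atp8. These limits cover counting error only and apply to what the counter assigned. They say nothing of how many reads were set aside before counting.

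To describe how much of each gene is shared, every run of 100 consecutive bases in a mitochondrial mRNA or rRNA was searched for in the other annotated transcripts. An exact copy was found for 99.5% of such windows in mt-Co2, 99.5% in mt-Atp6, 99.9% in mt-Co3, 97.6% in mt-Nd3 and 98.5% in mt-Nd4l. The share was 60.8% in mt-Nd4, 30.8% in mt-Co1 and 3.19% in mt-Nd2, the last from the pseudogene Gm13339 on chromosome 2. No copy was found for the windows of mt-Nd1, mt-Nd5, mt-Nd6, mt-Cytb, mt-Rnr1, mt-Rnr2 or mt-Atp8. Thus the 5 mRNAs at 97.6% or more all had 2 counts or fewer, and mt-Atp8 was the only mRNA or rRNA with no copied window and no count. Of mt-Nd4, 502 windows remained without a copy, and of mt-Co1 1000.

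**Figure D1:**
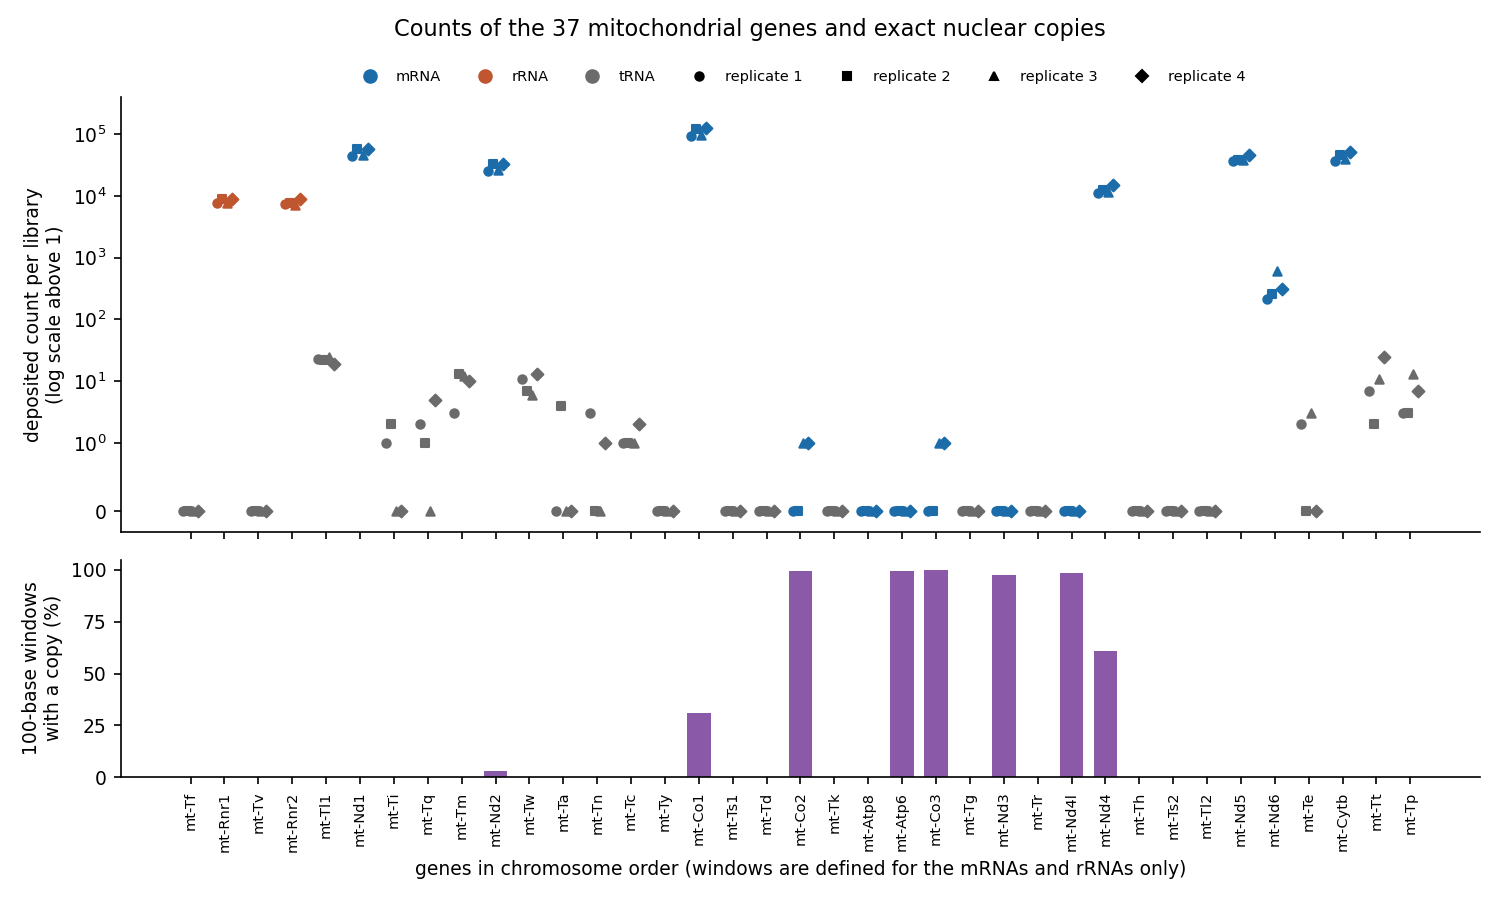
The upper panel plots the deposited count of each of the 37 mitochondrial genes in the 4 libraries (log scale above 1), in chromosome order, and the lower panel the percent of 100-base windows with an exact copy in another annotated transcript. From mt-Ts1 to mt-Nd4l every library has 0 or 1 count per gene, and the bars of the 5 mRNAs there with an annotated copy reach 97.6% or more.

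The nuclear pseudogenes themselves took few counts. Those of the chromosome 1 block had 77, 86, 84 and 84 counts in replicates 1 to 4, or 331 in all. The 5 copies of genes within the uncounted stretch held 284 of these, against 4 for the stretch itself. Gm28438, the copy of mt-Nd3 with the substitution near its start, had 25, 29, 39 and 28, the most in the block. Gm10925, identical to mt-Atp6 over 678 bases, had 24, 28, 20 and 19. The remaining totals over the 4 libraries were 35 for Gm28661 (mt-Co2, 681 bases, 0 mismatches), 33 for Gm28437 (mt-Co3, 783 bases, 0 mismatches), 29 for Gm28439 (mt-Nd4), 18 for Gm29216 (mt-Co1) and 4 for Gm10222 (mt-Nd4l, 294 bases, 0 mismatches). Further copies lie on chromosome 2. Gm13340, at 97.6% identity to mt-Co1, shared 80 exact windows with it and had 91 counts in all, and Gm13341, at 74.3% identity to mt-Co2 in an ungapped alignment, had 58. On the same chromosome Gm13339, at 96.7% identity to mt-Nd2, had 1 count. A count on any of these genes cannot be told apart from a misplaced mitochondrial read in the files used here. Each copy of the chromosome 1 block sits in the same order as its source and on the opposite strand. The chromosome 1 and chrM positions of paired bases added up to 24622578 for 5 of the 7 copies and to 24622577 for Gm10222 and Gm28439. The sums thus differ by 1 base across the interval between the copies of mt-Nd3 and mt-Nd4l, which on chrM holds the tRNA gene mt-Tr.

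Overlap between neighbouring mitochondrial genes on the same strand was small. It came to 43 bases for mt-Atp8 with mt-Atp6, 7 for mt-Nd4l with mt-Nd4, 2 for mt-Nd1 with mt-Ti, 2 for mt-Nd2 with mt-Tw, and 1 each for mt-Atp6 with mt-Co3 and mt-Ts2 with mt-Tl2. A fragment can also reach across a boundary without any overlap of the genes, and the recorded command holds no option that would count a fragment for more than 1 gene. How many fragments were set aside for that reason was not tested.

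Over all genes the libraries held 33123029 to 37746767 counts, and 17337 genes had at least 10 counts summed over the 4 libraries. Replicate 2 stood apart in the Th17 marker genes, whose summed level was 7058, 2244, 6550 and 6325 TPM in replicates 1 to 4. The interleukin gene Il17a was at 505 TPM in replicate 2 and at 2155 to 2543 in the others. The fall was not of like size in each marker: Batf, part of the same sum, was at 908 TPM in replicate 2 and at 947 to 987 in the others. T cell markers summed to 1261 to 1376 TPM, with replicate 2 the lowest. Markers of myeloid cells summed to 2.91 to 5.45 TPM (highest in replicate 2), epithelial cells to 1.23 to 1.83, B cells to 0.0928 to 0.817 and erythroid cells and platelets to 0 to 0.330, with Lyz2, Hbb-bs, Ppbp and Krt8 at 0 in every library.

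Mitochondrial genes took 0.791%, 0.868%, 0.770% and 0.914% of all counts in replicates 1 to 4, or 0.836% ± 0.0671 (SD, n = 4). As a share of TPM the values were 2.07%, 2.24%, 2.03% and 2.41%, or 2.18% ± 0.174 (SD, n = 4). Replicate 4 was highest and replicate 3 lowest on both scales. In bulk RNA, more mitochondria per cell and more RNA per mitochondrion cannot be told apart, nor can fewer cells of a type and less RNA per cell. The mRNAs held 94.2% to 95.0% of the mitochondrial counts, the rRNAs 5.03% to 5.75%, and the tRNAs 0.0169% to 0.0261%. These shares and this make-up cover assigned counts only. Reads set aside for genes with a nuclear copy, and any poly(A)+ selection, could shift them. By how much was not tested.

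Among the 9 mRNAs and rRNAs with at least 10 counts, 5 mRNAs had a higher level per length than both rRNAs in every library, and mt-Nd6 was last. The labels differ on whether poly(A)+ RNA was selected, and the part of that step in the rRNA levels was not tested. mt-Co1 (ENSMUSG00000064351.1, chrM:5328-6872), the catalytic core of complex IV, had 92952, 122227, 95644 and 124205 counts in replicates 1 to 4, or 6514 ± 628 TPM (SD, n = 4). mt-Nd1 (ENSMUSG00000064341.1, chrM:2751-3707), a membrane subunit of complex I, had 43726, 57145, 45081 and 57672 counts, or 4923 ± 442 TPM. In both genes replicates 2 and 4 were the high pair and replicates 1 and 3 the low pair, with no overlap between the pairs. The TPM ratio of mt-Co1 to mt-Nd1 stayed between 1.31 and 1.33 in the 4 libraries. mt-Cytb (ENSMUSG00000064370.1, chrM:14145-15288), the only mitochondrially encoded subunit of complex III, had 37121, 45983, 39800 and 51131 counts, or 3522 ± 330 TPM.

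Of the other complex I subunits, mt-Nd2 (ENSMUSG00000064345.1, chrM:3914-4951) had 25386, 32852, 26555 and 32426 counts, or 2614 ± 189 TPM (SD, n = 4). mt-Nd5 (ENSMUSG00000064367.1, chrM:11742-13565) had 36546, 38583, 37503 and 46059 counts, or 2021 ± 172 TPM, with replicate 4 above the rest. mt-Nd4 (ENSMUSG00000064363.1, chrM:10167-11544) had 10998, 12243, 11746 and 15200 counts, or 845 ± 95.1 TPM. In TPM, replicate 4 was again the highest for mt-Nd4 (985), with the others between 776 and 811. The gene for the small-subunit rRNA, mt-Rnr1 (ENSMUSG00000064337.1, chrM:70-1024), had 7622, 8753, 7610 and 9016 counts, or 802 ± 34.7 TPM. The large-subunit rRNA gene mt-Rnr2 (ENSMUSG00000064339.1, chrM:1094-2675) had 7452, 7627, 7247 and 8886, or 459 ± 36.8 TPM. Both rRNAs come from the same precursor as the genes after them, and mt-Nd1 exceeded mt-Rnr2 in TPM by 9.70 to 12.4 times in the 4 libraries. The part of any poly(A)+ selection in this ratio was not tested.

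In this order of 9 genes each neighbour differed without overlap in all 4 libraries except for 1 pair. mt-Nd4 and mt-Rnr1 overlapped, and mt-Nd4 was the higher in 2 of the 4 libraries. The place of mt-Nd4 moved with the choice of denominator. When CPM (the count scaled to a library total of 1000000) was divided by the number of windows without a copy, in place of the gene length, mt-Nd4 rose to 69.4 ± 7.23 CPM per 100 windows (SD, n = 4) and mt-Nd5 had 64.0 ± 4.84. mt-Nd4 was then above mt-Nd5 in 4 of 4 libraries, though their ranges overlapped, and above mt-Rnr1 (26.8) without overlap. The ratio of mt-Nd4 to mt-Nd5 was 0.417 by length (0.398 to 0.437) and 1.08 by windows without a copy (1.03 to 1.13). The lead of mt-Co1 over mt-Nd1 moved in the same way, from 1.32 to 1.83 times. On this scale mt-Co1 had 302 CPM per 100 windows, mt-Nd1 165, mt-Cytb 116 and mt-Nd2 89.5, so that the order of the other 7 genes was as in TPM. Ranked by CPM with no division, mt-Nd5 came before mt-Nd2. The levels per window depend on the window length. With windows of 50 and 150 bases, 731 and 1066 of mt-Co1 had no copy, and 908 and 808 of mt-Nd1. Ratios at those lengths were not computed.

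**Figure D2:**
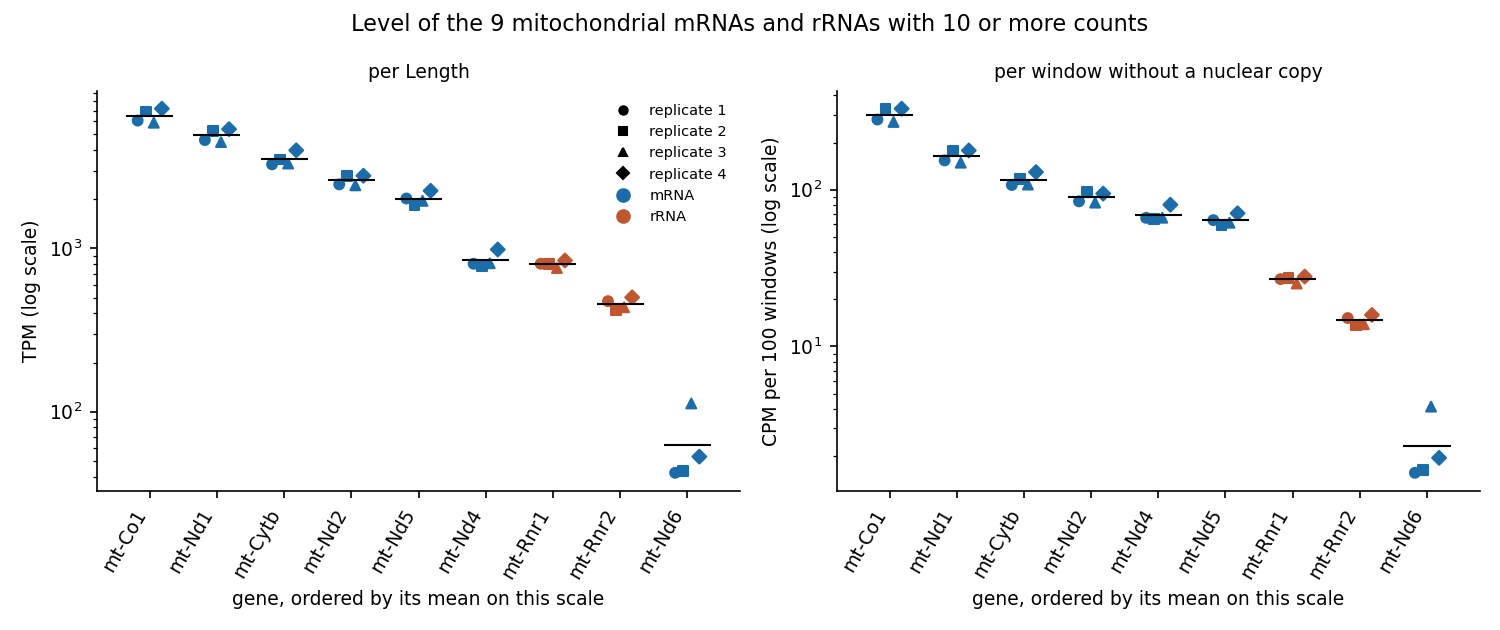
Both panels plot the 9 mitochondrial mRNAs and rRNAs with at least 10 counts, 1 symbol per library and a line at the mean, on log axes: TPM on the left, and CPM per 100 windows without a nuclear copy on the right. mt-Nd4 lies level with mt-Rnr1 at 845 and 802 TPM on the left and beside mt-Nd5 at 69.4 and 64.0 on the right, while mt-Nd6 is last on both.

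The minus strand of the reference carries 9 of the 37 genes, namely mt-Nd6 and 8 tRNAs, here called the light-strand genes. mt-Nd6 (ENSMUSG00000064368.1, chrM:13552-14070), a membrane subunit of complex I, is the only mRNA on it. Its last 60 bases are shown because its end faces mt-Nd5 (chrM:13552-13611, minus strand), with the 14 bases that lie opposite mt-Nd5 in capitals.
mt-Nd6: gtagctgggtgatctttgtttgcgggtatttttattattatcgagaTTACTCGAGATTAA
mt-Nd6 had 217, 256, 612 and 308 counts, or 42.2, 43.1, 112 and 53.0 TPM in replicates 1 to 4, and replicate 3 stood above the other 3. The TPM ratio of mt-Nd5 to mt-Nd6 was 47.9, 42.9, 17.4 and 42.6. All light-strand genes together held 0.0870%, 0.0814%, 0.231% and 0.0936% of the mitochondrial counts. The 8 light-strand tRNAs had 11, 9, 17 and 15 counts. Among them mt-Tp, the proline tRNA, had 3, 3, 13 and 7, also highest in replicate 3.

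The tRNAs, 59 to 75 bases long, were nearly absent from the counts. Over the 4 libraries the 22 genes had 264 counts, 11 of them were at 0 in every library, and 5 reached 10 counts in sum. A floor of 3 counts in a library stood for 5.13 TPM or less in those at 0. The most counted was mt-Tl1, a leucine tRNA between mt-Rnr2 and mt-Nd1, whose sequence is given as an example of these short genes (chrM:2676-2750, plus strand, no capitals).
mt-Tl1: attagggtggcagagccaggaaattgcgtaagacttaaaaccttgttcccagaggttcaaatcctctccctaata
mt-Tl1 had 23, 22, 25 and 19 counts in replicates 1 to 4. mt-Tt, the threonine tRNA that follows mt-Cytb, had 7, 2, 11 and 25, which is the widest range among the tRNAs. mt-Tm (methionine) had 3, 13, 12 and 10, mt-Tw (tryptophan) 11, 7, 6 and 13, and mt-Tq (glutamine) 2, 1, 0 and 5. A fragment longer than the tRNA would also cover a neighbouring gene, and its part in these low counts was not tested. The part of any poly(A)+ selection in them was not tested either.

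With no treated group, the only test between samples was of each library against the other 3. It used the quasi-likelihood test of edgeR, with Benjamini-Hochberg adjustment over the 17337 genes and a threshold of 0.05. It compares libraries, not conditions, and the 4 comparisons share their libraries. Replicate 2, which stood apart in the Th17 markers, was among the reference libraries for replicates 1, 3 and 4. It could widen the spread there. A lack of calls in those comparisons, for these genes or for the nuclear lists below, therefore says little. The 14 mitochondrial genes with at least 10 counts were tested, namely 7 mRNAs, 2 rRNAs and 5 tRNAs. For replicate 1, 0 of the 14 passed, and over all genes 0% were called higher and 0% lower. The same counts held for replicate 3 (0 of 14, with 0% of all genes higher and 0% lower) and for replicate 4 (0 of 14, with 0% and 0%). In replicate 2, 0 of the 14 passed, while 11.7% of all genes were called higher and 10.9% lower. At an unadjusted p under 0.05 edgeR gave 0, 2, 1 and 1 of the 14 in replicates 1 to 4, against 166, 5635, 257 and 128 of all genes. DESeq2's Wald test called 0, 0, 1 and 0 of the 14, the 1 being mt-Nd6, which was higher. Over all genes DESeq2 called 0%, 8.23%, 0.0808% and 0.00577% higher and 0.0115%, 8.17%, 0.00577% and 0.0115% lower in replicates 1 to 4.

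mt-Nd6 in replicate 3 had the largest difference relative to its error among the mRNAs and rRNAs. Its log2 difference was 1.27 ± 0.19 (SE), with an unadjusted p of 0.000897 and an adjusted p of 0.982 by edgeR's quasi-likelihood test with Benjamini-Hochberg adjustment. DESeq2's Wald test put it past the threshold, with an adjusted p of 0.00284. It also passed in edgeR when replicate 2 was left out (log2 difference 1.24, adjusted p 2.36e-13), a fit that called 0.584% of all genes higher and 0.0662% lower. With libraries scaled to their mitochondrial total it passed as well (1.43, adjusted p 0.000238), where 0.519% of all genes were called higher and 0.00577% lower. The call therefore differs with the tool and with the library that stands apart, while the direction was higher under each alternative run.

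In replicate 2 the 14 log2 differences had a median of -0.09, against -0.01 over all genes. mt-Nd1, mt-Nd2 and mt-Co1 had values of 0.17 ± 0.13, 0.17 ± 0.06 and 0.18 ± 0.16 (SE), and mt-Nd4, mt-Nd5 and mt-Rnr2 of -0.10 ± 0.15, -0.11 ± 0.07 and -0.10 ± 0.06. Their sizes were under the median absolute difference of all genes in that comparison, 0.24. The make-up of the mitochondrial counts differed in the same library: mt-Co1, mt-Nd1 and mt-Nd2 together held 61.8%, 65.2%, 61.5% and 62.1% of them in replicates 1 to 4, and mt-Nd4, mt-Nd5 and mt-Cytb 32.3%, 29.7%, 32.8% and 32.6%. The first sum was highest in replicate 2 and the second lowest there, without overlap with the other libraries. Both are shares of the same total and hold most of it, so a high first sum nearly fixes a low second. mt-Cytb, part of the second sum, had a log2 difference of 0.06 in replicate 2. The Th17 markers, at 2244 TPM in replicate 2 and 6325 to 7058 in the others, move with this make-up, and their part in it was not tested. mt-Tt had a log2 difference of -2.80 ± 1.09 from its 2 counts there (edgeR adjusted p 0.074).

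**Figure D3:**
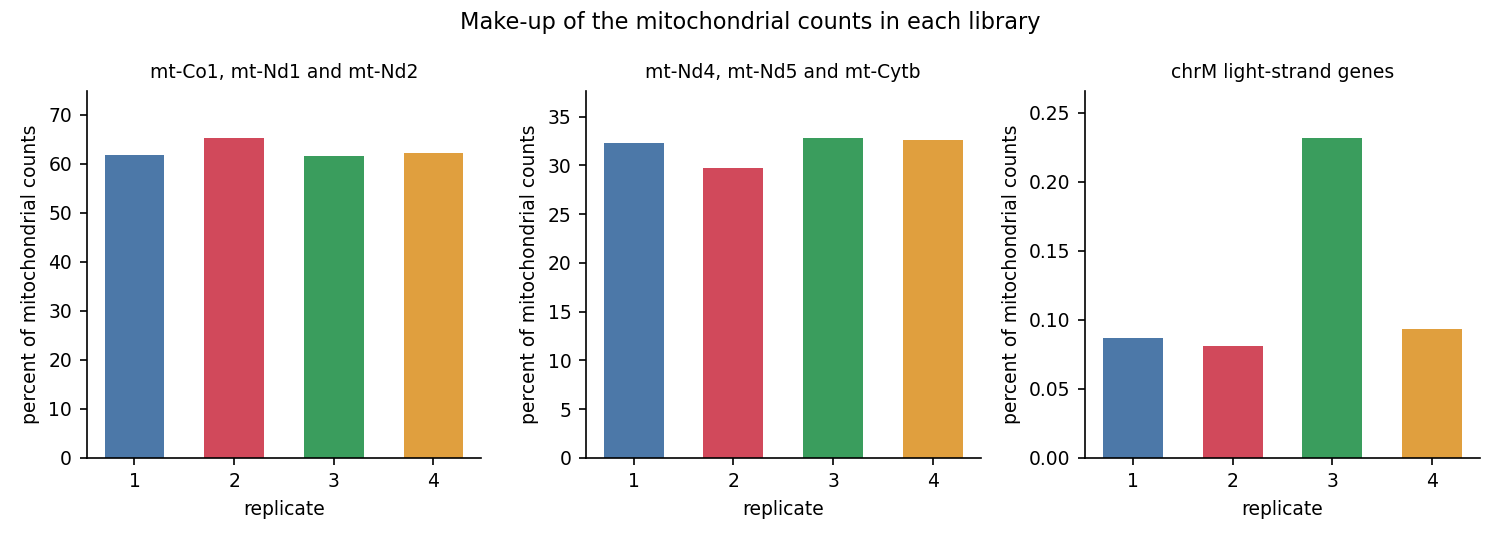
Bars from 0 show, for each of the 4 libraries, the percent of mitochondrial counts held by mt-Co1, mt-Nd1 and mt-Nd2 (left), by mt-Nd4, mt-Nd5 and mt-Cytb (middle) and by the 9 light-strand genes (right). Replicate 2 is high on the left (65.2%) and low in the middle (29.7%), and replicate 3 is high on the right (0.231%).

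Replicates 1, 3 and 4 had median log2 differences of -0.13, -0.10 and 0.14 over the 14 tested mitochondrial genes, where the median over all genes was -0.01 in each and the median absolute difference 0.13, 0.14 and 0.13. Only mt-Nd4 in replicate 4 reached an unadjusted p under 0.05 by edgeR's quasi-likelihood test there besides mt-Nd6 in replicate 3, with 0.27 ± 0.07 (SE) and an adjusted p of 1.00. With replicate 2 left out, 4 mitochondrial mRNAs were called higher in replicate 4 by the same test, at log2 differences of 0.23 for mt-Nd1, 0.25 for mt-Co1, 0.27 for mt-Nd4 and 0.26 for mt-Cytb. That fit called 6 genes higher (0.0361%) and 3 lower (0.0181%) of the 16610 tested. Leaving out another library also gave calls in replicate 2. Each fit with a library left out sets a single library against 2. Its spread comes from those 2, so these calls say little. Without replicate 1 these were mt-Nd1 and mt-Nd2 higher and mt-Tt lower (13.2% of all genes higher and 12.7% lower). Without replicate 3 they were mt-Nd2 higher and mt-Rnr2, mt-Nd5 and mt-Tt lower (12.4% and 11.9%), and without replicate 4 mt-Nd1, mt-Nd2, mt-Co1 and mt-Cytb higher (12.4% and 11.4%). With no filter on counts mt-Nd1 and mt-Nd2 were called higher in replicate 2, where 8.84% of all genes were called higher and 8.46% lower.

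**Figure D4:**
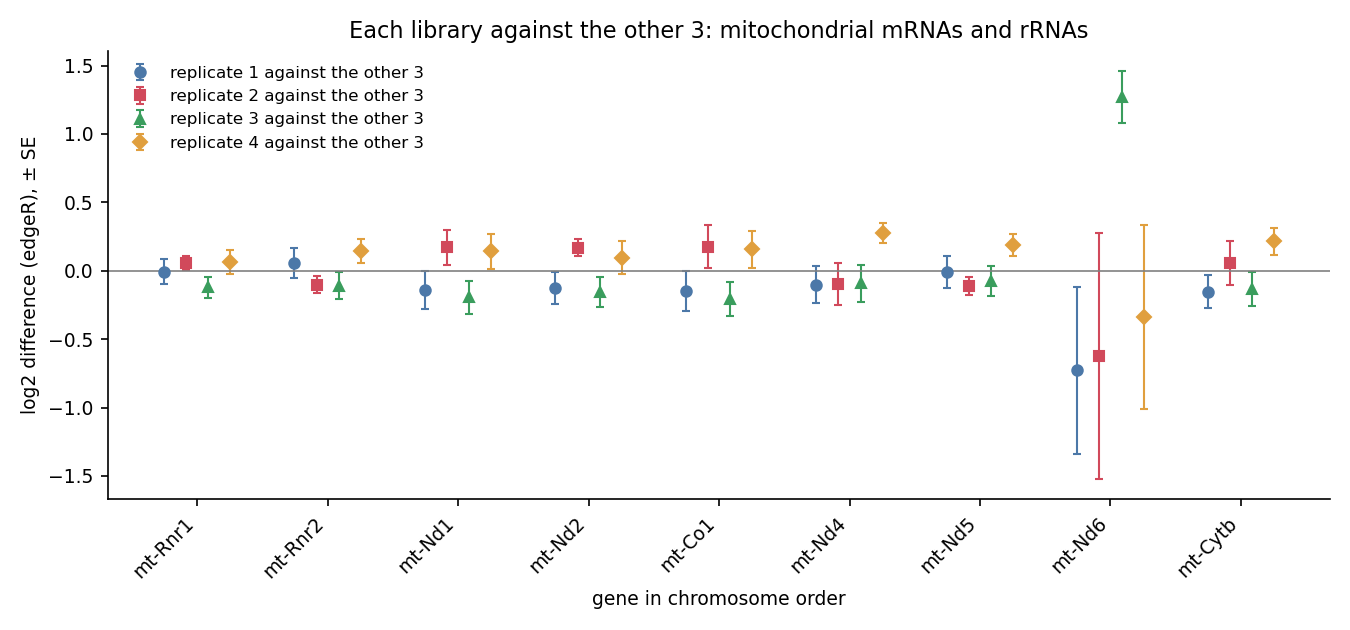
Points are the log2 difference of each library against the other 3 for the 9 mitochondrial mRNAs and rRNAs tested, with bars of ± 1 SE from edgeR's quasi-likelihood test. mt-Nd6 in replicate 3, at 1.27, lies apart from the other values, and the values of the other 8 genes lie between -0.21 and 0.27.

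A list of 56 nuclear genes was followed, of which 55 were tested. They make, cut, stabilise, modify or degrade mitochondrial RNA, maintain mitochondrial DNA or regulate mitochondrial gene expression. In replicate 2, 6 rose and 9 fell by edgeR's quasi-likelihood test with Benjamini-Hochberg adjustment, and 40 did not pass, against 11.7% of all genes higher and 10.9% lower. In the other 3 comparisons 0 of the 55 passed in either direction (0% of all genes), and 0 had an unadjusted p under 0.05. DESeq2 also called 0 of them in these comparisons. With replicate 2 among the reference libraries there, this lack of calls says little. The list's median in replicate 2 was -0.01, the same as over all genes. The counts by role that follow come from few genes each, beside the same 11.7% and 10.9% of all genes. No role was tested as a set.

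None of the 9 transcription genes passed. The polymerase Polrmt was at 40.7 ± 1.69 TPM (SD, n = 4), its DNA-bending factor Tfam at 52.9 ± 1.89, the initiation factor Tfb2m at 20.6 and the elongation factor Tefm at 28.9. Processing genes, which cut the precursors at the ends of tRNAs, included 2 risers of 4. These were Hsd17b10 (190 TPM, a subunit of the enzyme that cuts the 5′ end) with 0.26 ± 0.06 (SE) and Elac2 (107 TPM, which cuts the 3′ end) with 0.15 ± 0.05, while Trmt10c (70.6 TPM) did not pass. Of 10 stability genes Grsf1, a G-rich RNA-binding protein of mitochondrial RNA granules, fell by 0.23 on the log2 scale, with 121, 99.5, 126 and 118 TPM in replicates 1 to 4. Lrpprc (74.4 TPM) and Slirp (30.4), which bind and stabilise the mRNAs, the poly(A) polymerase Mtpap (85.6) and Tbrg4 (138), a further mRNA-stabilising protein, did not pass.

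Among 5 decay genes the ribonuclease gene Pnpt1 fell by 0.18 and the exonuclease gene Rexo2 by 0.21, and the helicase gene Supv3l1 (60.3 TPM) did not pass. Of 8 maintenance genes of mitochondrial DNA, 1 rose and 3 fell. Polg2, the accessory subunit of the DNA polymerase, rose by 0.51 ± 0.15 (SE), at 6.03, 7.72, 5.88 and 5.11 TPM. The exonuclease gene Mgme1 fell by 0.36, the topoisomerase gene Top1mt by 0.31 and the helicase gene Twnk by 0.25, and the catalytic subunit Polg (37.1 TPM) did not pass. Top1mt had 50.1, 37.6, 49.7 and 45.8 TPM, so replicate 2 lay below the others.

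Of the 5 tested regulators of mitochondrial gene expression, Esrra and the coactivator Pprc1 rose (the latter by 0.19 on the log2 scale), and the transcription factors Nrf1 and Gabpa fell, by 0.16 and 0.15. Esrra, a nuclear receptor, had 54.0, 72.4, 48.1 and 50.6 TPM in replicates 1 to 4 and a log2 difference of 0.57 ± 0.08 (SE), the largest rise of the list, with an adjusted p of 1.88e-05 by edgeR's quasi-likelihood test. The coactivator gene Ppargc1a had 1, 6, 1 and 0 counts and was not tested. Among 14 modification genes Gtpbp3, which modifies tRNA wobble bases, rose by 0.28 ± 0.09 and Trnt1, which adds the tRNA CCA end, fell by 0.16. DESeq2 called fewer genes of the list, as given below, so most of the falls named were edgeR calls only. With no normalization factor edgeR called 4 of the list higher and 10 lower in replicate 2, against 10.1% of all genes higher and 12.4% lower. DESeq2's Wald test called 3 of the list higher and 2 lower in replicate 2, against 8.23% and 8.17% of all genes. Scaling to the mitochondrial total left 0 called by edgeR, while calls over all genes also fell, to 2.15% higher and 4.21% lower. Without replicate 3 edgeR no longer called Mgme1 and Nrf1, and without replicate 4 it no longer called Twnk, Elac2 and Nrf1, with adjusted p between 0.0585 and 0.083.

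Nuclear genes for subunits of the respiratory chain were counted beside the mitochondrial ones (86 listed, 82 tested). They include complex II, which has no mitochondrially encoded subunit. Each gene was placed in a complex by its symbol alone, so that Ndufa4 was counted in complex I and Cox7a2l in complex IV. In replicate 2, 27 rose and 3 fell by edgeR's quasi-likelihood test with Benjamini-Hochberg adjustment, and 52 did not pass, against 11.7% of all genes higher and 10.9% lower. The median log2 difference of the list was 0.12, where all genes had -0.01 and the mitochondrial mRNAs tested had a median of 0.06. By complex the numbers that rose and fell were 8 and 2 of 37 for complex I, 1 and 0 of 4 for complex II, 3 and 0 of 9 for complex III, 9 and 1 of 15 for complex IV, and 6 and 0 of 17 for complex V. In replicates 1, 3 and 4, 0 of the 82 passed (0% of all genes) and 0 had an unadjusted p under 0.05. DESeq2 called 0 there as well. DESeq2's Wald test called 17 higher and 0 lower in replicate 2, against 8.23% and 8.17% of all genes. With libraries scaled to the mitochondrial total edgeR called 1 higher and 0 lower, against 2.15% and 4.21% of all genes.

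Cox6b2, a complex IV subunit known mainly from testis, had 93, 448, 94 and 119 counts in replicates 1 to 4, or 8.47, 35.3, 8.07 and 9.59 TPM. Replicate 2 was above the others without overlap, with a log2 difference of 2.08 ± 0.16 (SE) and an adjusted p of 5.07e-09 by edgeR's quasi-likelihood test. Ndufs5 of complex I rose by 0.40 ± 0.11. Cox6a2, the form of a complex IV subunit known from heart and skeletal muscle, had 15, 3, 17 and 20 counts and fell by 2.54 on the log2 scale (adjusted p 0.0415 by edgeR), a call that DESeq2's Wald test did not make. It was also lost in edgeR without replicate 3 (adjusted p 0.0526) and without replicate 4 (0.0703). Ndufv3 of complex I fell by 0.22, a call that DESeq2's Wald test did not make either. It was also lost in edgeR without replicate 4. The most abundant members were Atp5b (1861 TPM), the catalytic subunit of ATP synthase, which did not pass, and Cox8a of complex IV (1609 TPM), which rose by 0.35 ± 0.05.

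**Figure D5:**
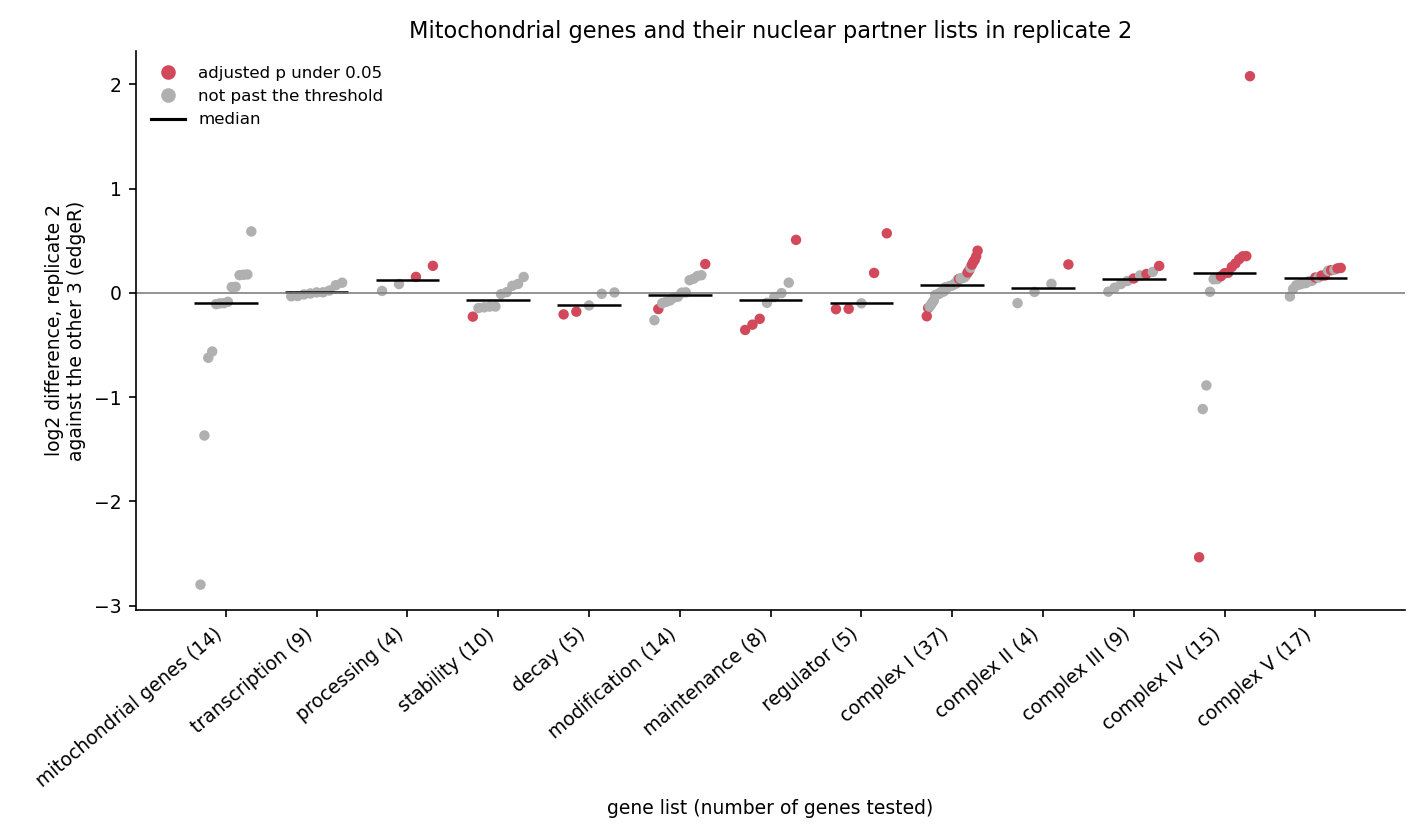
Each point is a tested gene's log2 difference in replicate 2 against the other 3, for the 14 mitochondrial genes and the 2 nuclear lists. Genes of mitochondrial RNA, DNA maintenance and regulation are split by role, and nuclear respiratory chain genes by complex. Black lines are medians, and red marks an adjusted p under 0.05. None of the mitochondrial genes is red, and the complex III, IV and V genes have medians of 0.14, 0.19 and 0.15.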

How the data were processed

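RNA sequencing was deposited as 1 table of raw counts per library for 4 Th17 libraries in 1 group. Per the file headers, the authors ran featureCounts 1.4.6-p4 on read pairs with strand option 2 and both ends mapped, against GENCODE vM13, with no option for reads of several places or several genes. Under the counter's defaults such reads are left out. The build is mm10 per the labels, and for the aligner's settings the sources used here give nothing. The members and lists were chosen with earlier results of these data known. Here TPM was computed as count over the deposited Length. Each library was compared with the other 3 in edgeR 4.0.16 (R 4.3.3; TMM, quasi-likelihood with robust prior, genes with at least 10 summed counts), so the spread comes from the other 3 libraries and the lone one is assumed to vary like them. SE is the absolute log2 difference over the square root of F. DESeq2 1.42.0 was an alternative. Scripts were checked on simulated data.

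Windows of 100 bases of each mRNA and rRNA, and their reverse complements, were searched in the GENCODE vM21 transcripts (mm10). These cover annotated genes only, and the design had foreseen a genome. Every copy found ran in the sense of the mitochondrial gene. Of 50600 identifiers, 50376 matched that annotation. Named were the mitochondrial mRNAs and rRNAs, the 6 tRNAs with most counts, fixed machinery genes, the largest changes of each list in replicate 2 and the pseudogenes with copied windows. Totals of 33123029 to 37746767 counts put the floor of 3 counts at 0.0795 to 0.0906 CPM. The alternatives were other scalings, other filters, DESeq2, other window lengths and leaving out each library. With a library left out, a single library is set against 2. The spread then comes from those 2, so calls gained or lost there say little. Chosen after seeing the data were the fit without the robust prior, the levels per window without a copy, and each alternative for the respiratory chain list. So were, for the nuclear machinery list, the other scalings (DESeq2's size factors, totals without chrM, the mitochondrial total) and the fit with no filter. Genes added to these rules after their values were seen were Rexo2, Pprc1, Nrf1, Gabpa and Trnt1.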

Additional observations from a re-analysis of the deposited data

Results flagged for a closer look

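In each result a single library lay far from the other 3 by Dixon's criterion, a gap to the nearest value that takes up more of the whole range than the 95% critical value for 4 samples. It was applied to 47 sets of 4 values, of which 7 passed. Chance alone passes about 1 in 20 independent sets, but several of these sets overlap. The nuclear genes among them were taken because they had passed the test in replicate 2. The number that passed therefore cannot be set against that rate. mt-Nd6 was at 112 TPM in replicate 3 and at 42.2 to 53.0 in the others, and the light-strand genes, of which it holds most counts, at 0.231% of the mitochondrial counts against 0.0814% to 0.0936%. mt-Nd4 was at 985 TPM in replicate 4 and at 776 to 811 in the others.

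Replicate 2 was apart in the other 4 results. In it mt-Co1, mt-Nd1 and mt-Nd2 held 65.2% of the mitochondrial counts, against 61.5% to 62.1%, and mt-Nd4, mt-Nd5 and mt-Cytb 29.7%, against 32.3% to 32.8%. These 2 shares are parts of the same total and are not independent. Of the nuclear respiratory chain genes, Cox6b2 was at 35.3 TPM against 8.07 to 9.59, and Ndufs5 at 63.8 against 49.4 to 51.9. The Th17 markers were also lowest in this library, and their part in these values was not tested.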

How the results depend on the processing

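Calls among the 14 tested mitochondrial genes stayed at 0 under most alternatives. In replicate 2 they became 2 with no filter on counts and 3 to 4 when another library was left out (shares of all genes given above). In replicate 3 they became 1 (mt-Nd6) under DESeq2, with libraries scaled to the mitochondrial total and when replicate 2 was left out (0 to 1 over the libraries left out), and in replicate 4 they ranged from 0 to 4. In replicate 2 the nuclear machinery list had 15 calls, 5 under DESeq2 and 0 with the mitochondrial scaling, and the respiratory chain list 30, 17 and 1. Of all genes, 11.7% were called higher and 10.9% lower in the main fit there, and 8.23% and 8.17% under DESeq2. The shares were 2.15% and 4.21% with the mitochondrial scaling. That scaling moved the median log2 difference of all genes to -0.11, 0.15 and -0.17 in replicates 2, 3 and 4, and turned mt-Cytb (-0.0427) and mt-Rnr1 (-0.0456) in replicate 2 and mt-Nd1 (-0.0188) and mt-Co1 (-0.0022) in replicate 4. Of 173 repeats for named mitochondrial genes, 149 kept direction and side of the threshold, 20 gained a call and 4 turned. Of 219 for nuclear genes, 173 kept both and 46 lost the call. The named mitochondrial genes were uncalled in the main fit, and the named nuclear genes were called. The former could therefore only gain a call and the latter only lose one. The cause of these changes was not tested.

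The mean mitochondrial share was 2.18% of TPM in place of 0.836% of counts. Of the 9 ranks, 7 held by CPM and 7 by windows without a copy. With windows of 50 and 150 bases the copied share of mt-Co1 was 51.1% and 23.6%, of mt-Nd4 62.2% and 59.2%, of mt-Nd2 8.19% and 0%, and of mt-Nd5 7.61% and 0%. No paired analysis was possible because there is 1 group. Copies outside annotated transcripts were not searched, and reads left out before counting cannot be recovered from count tables.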
